A study of Rattus norvegicus with 6 samples.

Results

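The genes described here encode the hyaluronan-bound proteoglycans neurocan (Ncan), brevican (Bcan) and versican (Vcan), the crosslinking glycoprotein tenascin R (Tnr) and the hyaluronan receptor Cd44. They were chosen by name, each represented by its probe set with the highest mean among those carrying a single gene symbol and a value on every array. All 5 were found among the 13355 genes measured, each with 1 such probe set, so splice forms of a gene were not told apart. The values are log2 expression on Affymetrix arrays for cultured rat oligodendrocyte progenitor cells (OPCs), the glial precursors from which myelinating oligodendrocytes form. Cells were taken from pups on postnatal day 1 to 2 and kept for 2 days in proliferation medium with PDGF and NT3. Then 3 arrays were made from cells given the plasma clotting protein fibrinogen for 48 h in differentiation medium, and 3 from cells labelled unstimulated (control) at 48 h. The labels give neither the rat strain, the fibrinogen dose nor the medium of the control cells. They also do not say whether the arrays of a group came from separate cultures. The limma p-values therefore rest on the spread between these arrays, which may be technical, and on a variance that also draws on all genes. The series title asks whether fibrinogen activates BMP signaling in these cells and holds back remyelination.

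Lecticans are chondroitin sulfate proteoglycans that bind the polysaccharide hyaluronan at their N-terminal end and, through a C-type lectin domain at the other end, bind tenascins and fibulins. In the brain, hyaluronan, lecticans and tenascin R form a loose meshwork around cells and the denser nets around some neurons and nodes of Ranvier, and chondroitin sulfate proteoglycans that accumulate in lesions are known to limit axon growth and the maturation of OPCs. Cd44 binds hyaluronan at the cell surface and connects it to the actin cytoskeleton. OPCs make neurocan, brevican and versican, oligodendrocyte-lineage cells make tenascin R, and astrocytes and their precursors make Cd44 and neurocan.

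With fibrinogen, Ncan and Cd44 transcripts rose, the Tnr transcript fell, and Bcan and Vcan did not pass the test. The rises were 1.58-fold for Ncan and 1.65-fold for Cd44, and the fall of Tnr was 1.47-fold. Thus 3 of the 5 genes passed an adjusted p of 0.05 in limma (Benjamini-Hochberg over all 13355 genes), where 7.16% of all genes tested passed, 4.16% upward and 3.00% downward (555 and 401 genes; 434 and 516 when arrays were centred on their medians, which did not end the call of any of the 3). All 5 genes were brighter than the median probe in control. When genes below the median probe were left out of the fit, 11.8% of the remaining 7544 genes rose and 8.23% fell. The same 3 of the 5 genes passed in that fit. The arrays of the 2 groups did not overlap for 4 of the 5 genes, all but Vcan, compared with 27.0% of all genes.

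**Figure D1:**
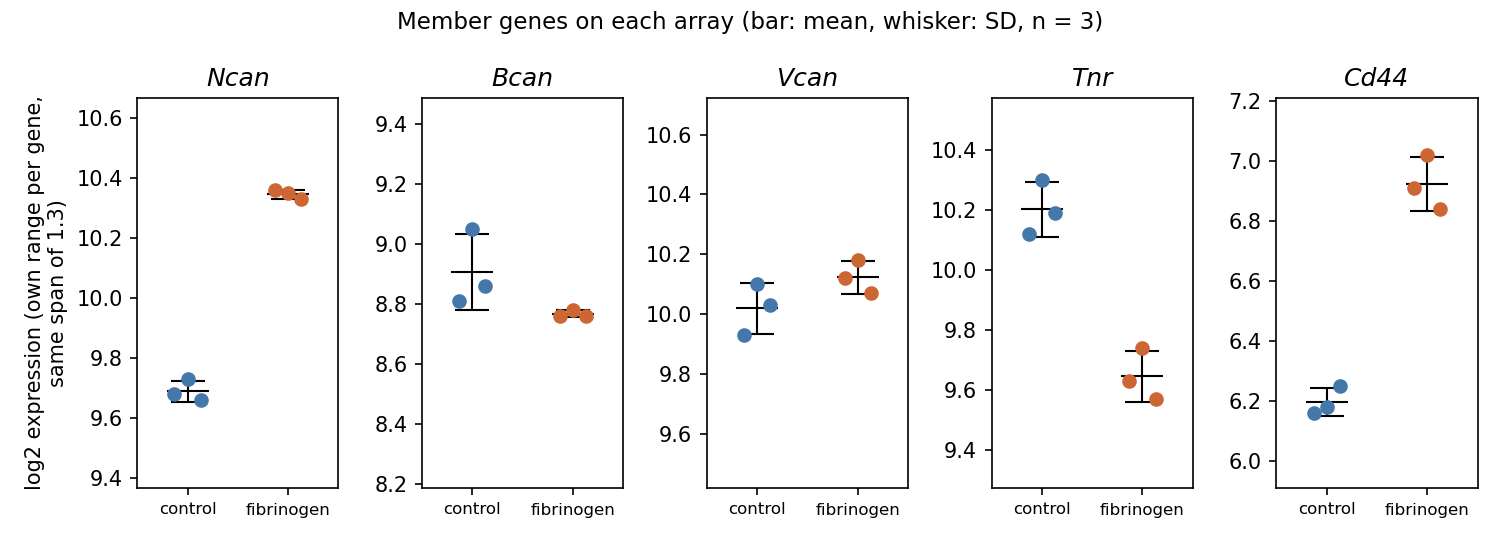
Log2 expression of each of the 5 genes on the 3 control (blue) and 3 fibrinogen (orange) arrays, with the group mean and SD; each panel has its own position but the same span on the vertical axis. Ncan and Cd44 lie higher and Tnr lower on all 3 fibrinogen arrays, Bcan shows a gap of 0.03 between groups, and the groups overlap for Vcan.

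Ncan, the lectican of developing and injured brain, had log2 values of 9.68, 9.73 and 9.66 on control arrays 1 to 3 and 10.36, 10.35 and 10.33 on fibrinogen arrays 1 to 3. Every fibrinogen array lay above every control array, and arrays within a group differed by less than 0.1. The means were 9.69 ± 0.04 (SD, n = 3) and 10.35 ± 0.02 (SD, n = 3), a log2 fold change of 0.66 (SE 0.07, 95% interval 0.50 to 0.82, limma adjusted p = 0.00345). Among the 13355 genes, 207 had a larger rise.

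Bcan, the lectican of mature brain matrix that is also cleaved into fragments by ADAMTS proteases, had values of 8.81, 9.05 and 8.86 on the control arrays and 8.76, 8.78 and 8.76 on the fibrinogen arrays. The fibrinogen arrays were all lower, but the lowest control value exceeded the highest fibrinogen value by only 0.03, and control 2 stood above the other controls. The log2 fold change was -0.14 (SE 0.09, 95% interval -0.34 to 0.06) and did not pass (limma adjusted p = 0.421). Without control 2 it was -0.07. The SD was 0.13 over the control arrays and 0.01 over the fibrinogen arrays (n = 3 each).

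Vcan, a large lectican of embryonic and white matter, had values of 9.93, 10.10 and 10.03 in control and 10.12, 10.18 and 10.07 with fibrinogen. The groups overlapped, since fibrinogen 3 lay below control 2. The log2 fold change was 0.10 (SE 0.08, 95% interval -0.08 to 0.29) and did not pass (limma adjusted p = 0.527), which leaves room for a rise of up to 0.29 on the log2 scale. The only other lectican gene, Acan (aggrecan, the lectican of cartilage and of the nets around neurons), was dimmer than the median probe in control. It stood at 5.46 ± 0.16 in control and 5.82 ± 0.10 with fibrinogen (SD, n = 3), a log2 fold change of 0.36 that did not pass (limma adjusted p = 0.0976).

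Tnr, which links lecticans into a network through their lectin domains, had values of 10.12, 10.30 and 10.19 in control and 9.63, 9.74 and 9.57 with fibrinogen. All 3 fibrinogen arrays lay below all controls. The means were 10.20 ± 0.09 and 9.65 ± 0.09 (SD, n = 3), and the log2 fold change was -0.56 (SE 0.09, 95% interval -0.76 to -0.36, limma adjusted p = 0.0118). A total of 223 genes had a larger fall. The call was lost without fibrinogen 1 (adjusted p = 0.0565) or fibrinogen 3 (adjusted p = 0.0533), where the log2 fold change was -0.55 and -0.52.

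Cd44, the hyaluronan receptor, had values of 6.16, 6.18 and 6.25 in control and 6.91, 7.02 and 6.84 with fibrinogen, again without overlap. The means were 6.20 ± 0.05 and 6.92 ± 0.09 (SD, n = 3), and the log2 fold change was 0.73 (SE 0.08, 95% interval 0.54 to 0.91, limma adjusted p = 0.00392). Larger rises were seen for 145 genes. The control mean of Cd44 was 0.42 above the median probe of the control arrays, and those of the other 4 genes were between 3.13 and 4.42 above it. These distances describe probe brightness, not the relative amounts of the transcripts. Because the RNA is from whole cultures, fewer cells of a type and less RNA per cell cannot be told apart for any of these genes.

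The genes were then compared with each other by subtracting log2 values within each array, which removes a shift common to a whole array and leaves the difference of their responses. Of 10 pairs, 9 had non-overlapping groups and an interval that excluded 0, and the exception was Ncan with Cd44. The pairs are built from the same 5 genes, of which Ncan, Tnr and Cd44 passed on their own, so they are not independent. Among single genes, 27.0% had non-overlapping groups. The share among all pairs of genes was not computed, and the intervals were not adjusted for 10 comparisons. Ncan minus Bcan was 0.87, 0.68 and 0.80 on the control arrays and 1.60, 1.57 and 1.57 on the fibrinogen arrays, so the response of Ncan exceeded that of Bcan by 0.80 on the log2 scale (95% interval 0.64 to 0.95). The response of Ncan exceeded that of Vcan by 0.55 (95% interval 0.42 to 0.69). The response of Bcan lay below that of Vcan, with a difference of -0.24 (95% interval -0.36 to -0.12).

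Vcan minus Tnr had the narrowest interval of the 10 pairs. It was -0.19, -0.20 and -0.16 in control and 0.49, 0.44 and 0.50 with fibrinogen, a difference of 0.66 (95% interval 0.60 to 0.72). Bcan and Tnr, both lower on every fibrinogen array, differed as well, Tnr by more (difference for Bcan minus Tnr 0.42, 95% interval 0.28 to 0.55). The widest contrast was between the crosslinker and the receptor, with Tnr minus Cd44 at 3.96, 4.12 and 3.94 in control and 2.72, 2.72 and 2.73 with fibrinogen (difference -1.28, 95% interval -1.44 to -1.12). Ncan and Cd44 responded with a difference of -0.07 (95% interval -0.25 to 0.11), so a gap of up to 0.25 in favour of Cd44 remains possible. A two-sided exact permutation test gave p = 0.1 for each of the 9 pairs (0.111 after Benjamini-Hochberg over the 10 pairs) and p = 0.4 for Ncan with Cd44. With 3 arrays against 3 the test cannot go below 0.1, and the intervals come from a linear model of each difference, without moderation.

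**Figure D2:**
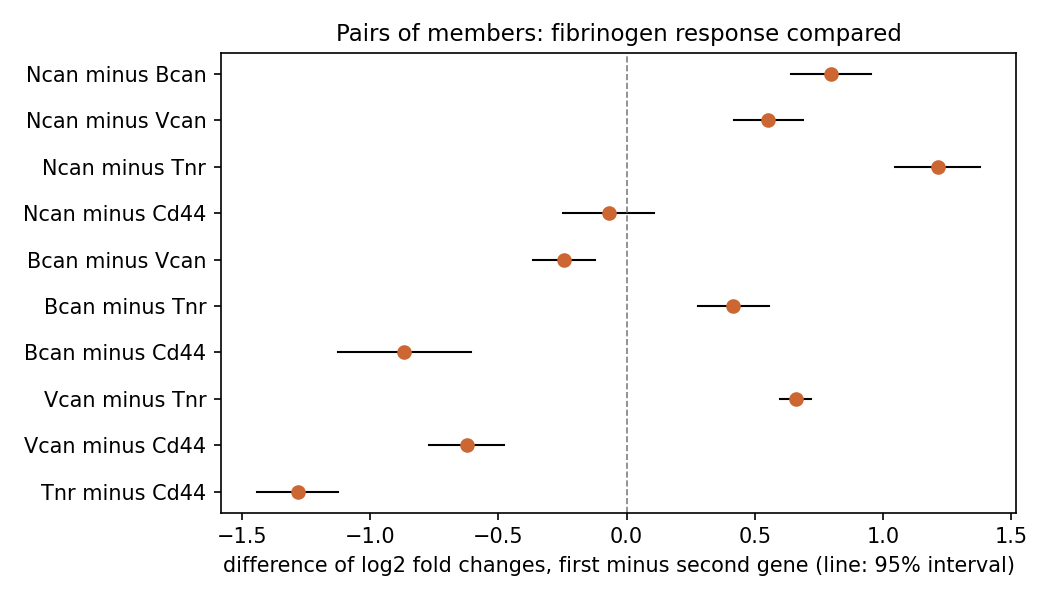
Difference of the log2 fold changes (fibrinogen over control) for each of the 10 pairs, first minus second gene, with its 95% interval. The interval crosses 0 for Ncan minus Cd44 only; the largest difference is that between Tnr and Cd44, at -1.28.

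The promoters of the 3 genes that passed the test are shown to compare the start regions of genes that moved in opposite directions. The sequences are the 250 bases before the first start listed in RefSeq (build GRCr8), 5′ to 3′ on the gene's strand, with capitals marking matches to a searched motif on either strand. They lie at chr16:19335657-19335906 (plus strand) for Ncan, chr3:109699425-109699674 (minus strand) for Cd44 and chr13:74624776-74625025 (plus strand) for Tnr.
Ncan: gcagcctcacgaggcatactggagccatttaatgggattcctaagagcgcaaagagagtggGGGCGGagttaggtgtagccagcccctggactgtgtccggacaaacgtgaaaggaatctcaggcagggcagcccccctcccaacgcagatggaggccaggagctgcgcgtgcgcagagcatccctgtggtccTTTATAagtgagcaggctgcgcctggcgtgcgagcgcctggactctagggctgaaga
Cd44: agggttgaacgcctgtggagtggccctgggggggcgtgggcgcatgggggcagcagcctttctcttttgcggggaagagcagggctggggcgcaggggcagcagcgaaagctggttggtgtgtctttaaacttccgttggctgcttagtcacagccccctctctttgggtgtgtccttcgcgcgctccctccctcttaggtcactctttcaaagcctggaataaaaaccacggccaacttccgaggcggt
Tnr: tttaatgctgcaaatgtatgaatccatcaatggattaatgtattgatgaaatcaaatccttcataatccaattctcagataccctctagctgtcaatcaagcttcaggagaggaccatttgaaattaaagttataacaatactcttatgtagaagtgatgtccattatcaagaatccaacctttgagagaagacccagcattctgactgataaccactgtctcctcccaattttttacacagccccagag
The Tnr window was poor in G and C, at 36.8%, whereas Ncan and Cd44 stood at 60.8% each, Bcan at 61.2% and Vcan at 61.6%, against a median of 51.2% over 33469 windows of all genes in the table. A GC box (GGGCGG) was present in the windows of Ncan, Bcan and Vcan, and in 30.5% of all windows. The Ncan window also held a match to the TATA box motif (TATAAA), here on the opposite strand and at position -57 from the start. Such a match on either strand was found in 12.9% of all windows. The Bcan window held a SMAD box (CAGAC), found in 42.9%. No window of the 5 genes held an AP-1 site (TGANTCA, 6.34% of all windows), a BMP SMAD element (GGCGCC, 8.69%), a SOX motif (ACAAAG, 16.3%) or an E-box (CAGCTG, 11.97%), and those of Tnr and Cd44 held none of the 7 motifs. These are matches of letters in a short window and describe no binding. Which start these cells use was not measured, so a window may not be the active promoter.

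Other genes of the hyaluronan and chondroitin sulfate matrix moved in both directions. Of 100 genes listed by role, 80 were measured, and 12 rose (15%, against 4.16% of all genes), 8 fell (10%, against 3.00%) and 60 did not pass. The count of falls was 5 without control 2, fibrinogen 1 or fibrinogen 2, where the share of all genes that fell was 1.59%, 1.12% and 1.18%. Rises numbered 19 of 70 list genes when the dimmest 25% of genes were left out of the fit, where 7.71% of all genes rose. The median log2 fold change of the 80 was 0.06, and that of all genes was 0.003. The list was drawn up with earlier results for several of its genes known. It is no independent evidence of a direction or of an excess of calls over all genes.

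Among genes that make hyaluronan, Has2, a hyaluronan synthase, rose 1.28-fold from 5.49 ± 0.10 to 5.85 ± 0.05 (SD, n = 3), both near the median probe, with a limma adjusted p of 0.0425. Leaving out control 1 preserved that call, whereas leaving out any of the other 5 arrays removed it (adjusted p up to 0.140), as did centring the arrays on their medians (adjusted p = 0.0693). It was the only gene to pass of the 4 in this group. Ugdh, which makes the UDP-glucuronate used for both hyaluronan and chondroitin sulfate, was at 0.35 on the log2 scale (adjusted p = 0.0597), and the synthase gene Has1 at -0.40 (adjusted p = 0.319). Of 8 genes of hyaluronan-binding proteins, Hmmr, an intracellular and surface hyaluronan-binding protein that also acts on the mitotic spindle, stood at 7.61 ± 0.12 in control and 8.25 ± 0.09 with fibrinogen (SD, n = 3), a 1.56-fold rise (adjusted p = 0.00942). The link protein gene Hapln1, whose product locks lecticans onto hyaluronan, was at 0.37 (adjusted p = 0.133) and lay below the median probe. Habp4 was at -0.17 (adjusted p = 0.298). Of 4 genes of hyaluronan breakdown, Hyal3, a hyaluronidase family member, stood at 7.09 ± 0.17 in control and 6.54 ± 0.02 with fibrinogen (SD, n = 3), a 1.46-fold fall (adjusted p = 0.0222). The Hyal3 call was lost without control 2 or any one fibrinogen array (highest adjusted p = 0.0868). Hyal1 and Cemip2 were at -0.31 and 0.18 (adjusted p = 0.279 and 0.529).

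Of 6 measured genes of other tenascins and of proteins that bind tenascin R or share its lectican-binding role, 1 rose and 1 fell. Fbln2, a fibulin that binds the lectin domain of lecticans as tenascin R does, rose 2.14-fold from 5.60 ± 0.12 to 6.70 ± 0.07 (SD, n = 3; limma adjusted p = 0.00166). Nfasc, the adhesion protein neurofascin of nodes and of oligodendrocytes, stood at 10.59 ± 0.14 in control and 9.95 ± 0.03 with fibrinogen (SD, n = 3), a 1.57-fold fall (adjusted p = 0.00808). Fbln1 was at 0.49 (adjusted p = 0.0624), the tenascin gene Tnn at 0.27 (adjusted p = 0.400) and Ptprz1, a receptor phosphatase of OPCs that is itself a chondroitin sulfate proteoglycan, at 0.27 (adjusted p = 0.0862). Cntn1 (contactin 1, a neuronal and oligodendroglial receptor of tenascin R) was at 0.02 (95% interval -0.15 to 0.19).

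Of 9 genes listed with the other proteoglycans, 4 rose. These were Bgn (biglycan, by 2.09 on the log2 scale), Cspg4 (NG2, the surface proteoglycan of OPCs, by 0.63), Cspg5 (neuroglycan C, by 0.60) and Smoc1 (by 0.74, adjusted p = 0.00439). Smoc1 encodes a matricellular protein known as a BMP antagonist and is not a classical proteoglycan. It went from 8.67 ± 0.06 to 9.41 ± 0.11 (SD, n = 3).

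Enzymes that build the chondroitin sulfate chain and those that sulfate it each moved both ways. Xylt1, the xylosyltransferase that starts the chain on the core protein, rose 1.59-fold from 8.97 ± 0.02 to 9.63 ± 0.11 (SD, n = 3; limma adjusted p = 0.00536), and B3gat3, which completes the linker, fell 1.44-fold (adjusted p = 0.0286). The other 8 of 10 chain-synthesis genes did not pass. B3gat3 itself missed the threshold in each of the 6 fits that left out 1 array (adjusted p 0.0520 to 0.0838). Csgalnact1, which adds the first chondroitin sugar, was at -0.60 with SDs of about 0.30 in each group and did not pass (adjusted p = 0.127).

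Of 10 sulfation and epimerisation genes, Ust, the uronyl 2-sulfotransferase, fell 1.82-fold from 9.49 ± 0.06 to 8.63 ± 0.06 (SD, n = 3; limma adjusted p = 0.00204). Papss2, which makes the sulfate donor, fell by 1.31 on the log2 scale (adjusted p = 0.00162). Chst7, a 6-O-sulfotransferase, rose 1.39-fold (adjusted p = 0.0261), a call lost without control 2, control 3 or any one fibrinogen array (highest adjusted p = 0.0982). Chst3, the main 6-O-sulfotransferase, was at -0.36 (adjusted p = 0.229), and Chst11, a 4-O-sulfotransferase, at 0.14 (95% interval -0.05 to 0.33). None of the 4 measured breakdown genes passed in limma, and 1 had an unadjusted p under 0.05, as did 21.1% of all genes. The lowest adjusted p among them was 0.0663, for the sulfatase gene Arsb at -0.28, and Hexa and Galns were at -0.20 and -0.05 (adjusted p = 0.252 and 0.787).

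Among 12 proteases that cut lecticans and their inhibitors, 2 rose and 1 fell. Adamts4, an aggrecanase that cleaves brevican, neurocan and versican, fell by 0.91 on the log2 scale (limma adjusted p = 0.00166). The inhibitors Timp4 and Timp1 rose by 0.97 and 0.83 (adjusted p = 0.00216 and 0.00187), Timp4 from 8.06 ± 0.08 to 9.03 ± 0.11 (SD, n = 3). Timp3, the inhibitor with the broadest action on ADAMTS proteases, was at 0.52 and did not pass (adjusted p = 0.0560), and neither did the other 4 measured ADAMTS genes, Adamts1, Adamts5, Adamts9 and Adamts15, at 0.30, 0.06, 0.003 and -0.06.

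The 7 genes around Cd44 gave 1 rise and 2 falls. Msn (moesin, which ties the tail of Cd44 to actin) rose 1.60-fold from 6.67 ± 0.11 to 7.35 ± 0.05 (SD, n = 3; limma adjusted p = 0.00543). Its relatives Ezr (ezrin) and Rdx (radixin) were at 0.43 (adjusted p = 0.0607) and -0.01 (95% interval -0.19 to 0.16). Ank3 (ankyrin G, a spectrin adaptor of axons and of paranodal glia) stood at 7.93 ± 0.03 in control and 7.02 ± 0.11 with fibrinogen (SD, n = 3), a 1.88-fold fall (adjusted p = 0.00209). Adam17, a sheddase of Cd44, fell 1.38-fold (adjusted p = 0.0229), but passed in only 1 of the 6 fits that left out 1 array, that without fibrinogen 3 (highest adjusted p of the others 0.0903). None of the 5 genes of chondroitin sulfate receptors passed in limma, and 1, Ptprf, had an unadjusted p under 0.05 (21.1% of all genes). Ptprf (LAR) was at 0.48 (adjusted p = 0.0668), Ptprs (PTP sigma) at 0.19 (adjusted p = 0.265) and Rtn4rl2 at 0.09 (adjusted p = 0.614).

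**Figure D3:**
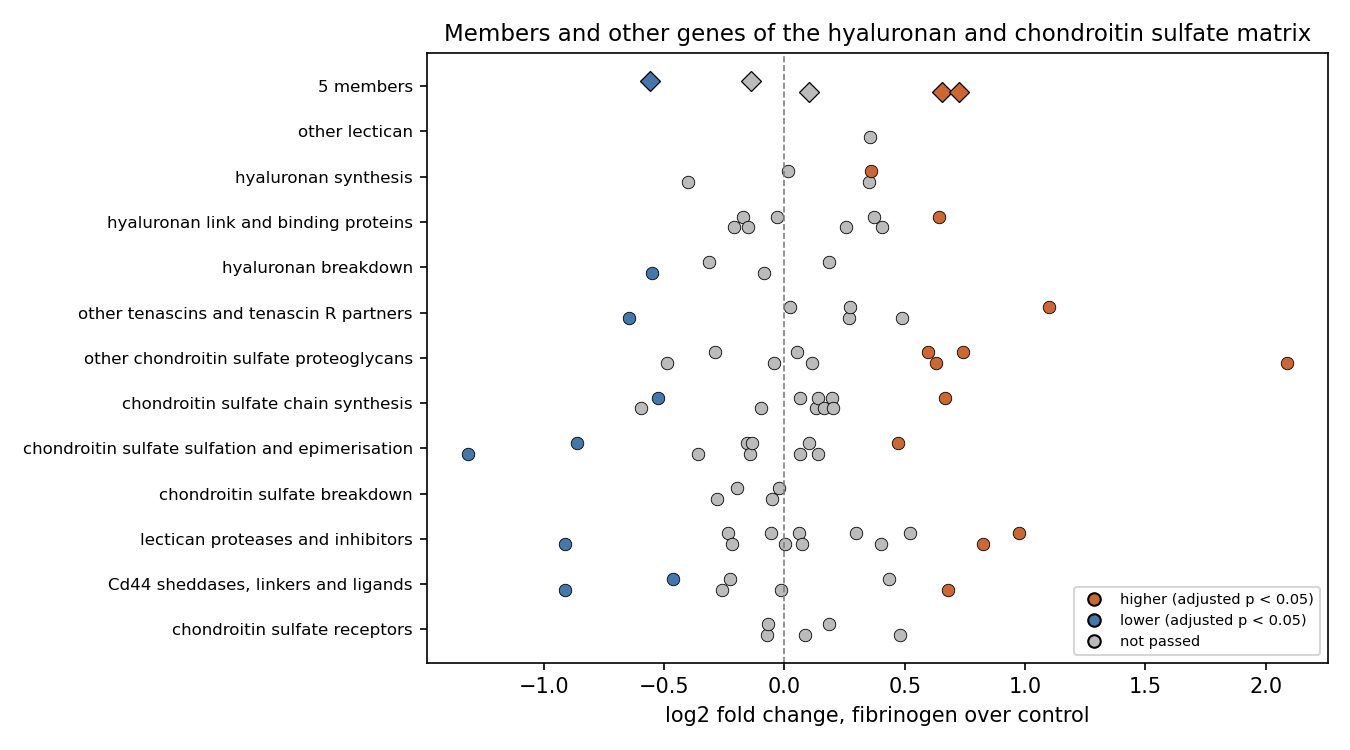
Log2 fold change (fibrinogen over control) of the 5 genes (diamonds, top row) and of 80 other measured genes of the matrix grouped by role (circles; small vertical offsets separate points). Orange marks 12 genes of the lists that rose and blue 8 that fell at an adjusted p under 0.05; both colours occur in 5 of the groups.

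Markers of other cell types moved in the same arrays; the counts below stand beside 4.16% of all genes that rose and 3.00% that fell. Of 8 astrocyte markers measured, 4 rose, and their mean log2 level went from between 7.97 and 8.04 on control arrays to between 8.30 and 8.35 on fibrinogen arrays. Gfap, the defining filament of astrocytes, rose 2.00-fold (limma adjusted p = 0.00162), and Aqp4, Gja1, S100b and Aldoc did not pass. Of 9 mature oligodendrocyte markers, 5 fell and 1 rose, and their mean went from between 8.75 and 8.82 to between 8.52 and 8.63. Of 8 OPC markers, 4 rose, Pdgfra by 0.58 and Cspg4 (also among the proteoglycans above) by 0.63 on the log2 scale. The mean OPC marker level was between 9.45 and 9.57 in control and between 9.83 and 9.89 with fibrinogen, so markers of the labelled cell type were bright in both groups. Of 10 neuron markers, 2 rose and 1 fell, and 2 lay below the median probe in control; their mean was between 7.20 and 7.33 in control and between 7.17 and 7.26 with fibrinogen. Syt1 (a synaptic vesicle calcium sensor) fell by 1.16 on the log2 scale (adjusted p = 0.00141), and Elavl4 (a neuronal RNA-binding protein) and Stmn2 (a stathmin) rose by 0.90 and 0.38 (adjusted p = 0.00204 and 0.0297). Microglial, endothelial and pericyte or fibroblast markers lay mostly below the median probe in control (8 of 10, 5 of 5 and 8 of 9). The mean microglial level was between 4.52 and 4.67 in control and between 4.24 and 4.38 with fibrinogen, with 2 of 10 markers lower, and Csf1r was at -0.36 (adjusted p = 0.175). Of 9 pericyte or fibroblast markers 1 rose, Mgp (matrix Gla protein), by 1.59 on the log2 scale (adjusted p = 0.00513), a rise exceeded by 5 genes, and Col1a1 was at 0.04 (adjusted p = 0.859). No endothelial marker of 5 passed in limma, and 0 had an unadjusted p under 0.05. The part of astrocyte, oligodendrocyte, neuron, fibroblast or other cell numbers in the changes of Ncan, Cd44 and Tnr was not tested.

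Across 16 alternative ways of processing, the direction of all 5 genes was the same in every one, and Ncan and Cd44 passed in all 16. Direction could change only with centring, renewed normalization or an array left out. The other alternatives left the fold changes of these genes as they were and could change only the p-values. Their log2 fold changes ranged from 0.61 to 0.68 and from 0.67 to 0.77. Tnr passed in 14 of 16, with a range of -0.60 to -0.51. Bcan and Vcan passed in none, with ranges of -0.19 to -0.07 and 0.06 to 0.14.

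**Figure D4:**
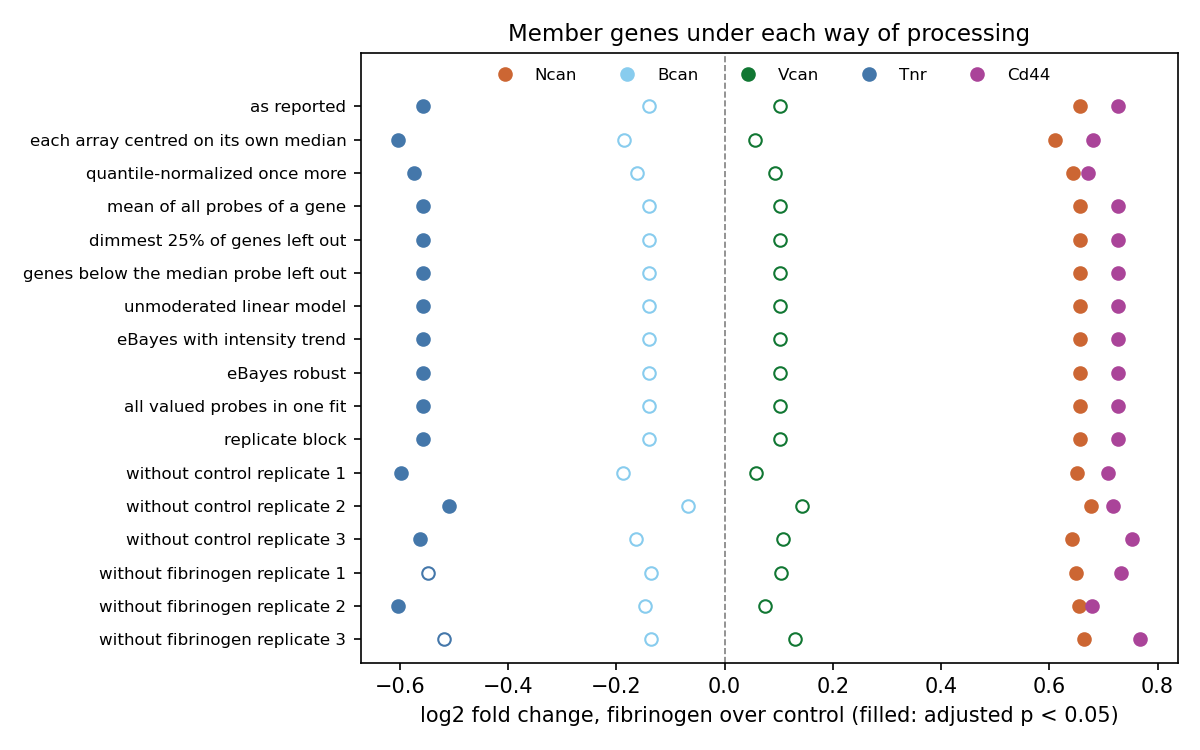
Log2 fold change of the 5 genes as reported and under each of 16 alternatives; filled points have an adjusted p under 0.05 and open points do not. Ncan and Cd44 are filled in every row, Bcan and Vcan in none, and Tnr is open without fibrinogen 1 or 3.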

How the data were processed

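RNA for 6 arrays (3 control, 3 fibrinogen, grouped by title) was column-purified with DNase treatment and amplified and biotin-labelled with NuGEN kits, per the labels' protocols. The authors deposited normalized log2 values for each array and probe set. Per the submitters' processing notes they used RMA and limma; versions, settings and the build are not given in the sources used here. RMA compresses changes of dim probes, and the values come with no detection calls. Of 26312 probe sets, 23631 had values. The array medians lay between 5.78 and 5.84. Correlations between arrays over all genes ran from 0.986 to 0.995. They were lowest between control 1 and the fibrinogen arrays, with a mean of 0.986 against 0.990 for each other control. With 3 arrays a group, no array was tested as an outlier.

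Probe sets were named from the platform annotation (14083 valued ones with a single symbol, 13355 genes; 13333 matched a RefSeq gene record by gene number). The 2 groups were compared with limma 3.58.1 in R 4.3.3 by lmFit and eBayes (two-sided, without covariates or a filter), with Benjamini-Hochberg adjustment over all genes and a threshold of 0.05. The fit was tested on simulated arrays. SDs are over 3 arrays a group. SEs and 95% intervals of single genes use the eBayes variance, which draws on all genes as well as on a gene's own arrays. For Ncan the SE was 0.07, and 0.02 in the unmoderated model. The number of arrays limits the precision (median SE 0.104). The genes, lists and tests were chosen with earlier results of these data known. Genes named were the 5 genes, matrix list members past the threshold and the 3 with the smallest p in each matrix list. A few fixed markers and the 3 most alike profiles per gene were also named. The others named in lists were chosen after their values were seen, and not every marker past the threshold was named. Of the listed matrix genes, 20 had no valued probe set of their own and were not analysed here. A planned comparison of the proteins was not made. Alternatives covered centring, normalization, the probe per gene, dim genes, the variance model, all probes, a replicate block and each array left out.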

Additional observations from a re-analysis of the deposited data

How the results depend on the processing

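Tnr missed the threshold when fibrinogen 1 or fibrinogen 3 was left out; over the fits that leave out 1 array its log2 fold change ran from -0.60 to -0.51. The other 4 genes kept their side of the threshold in all 16 alternatives, and their direction in those that could change it. The 10 differences between genes kept direction and side when 1 array was left out or the values were quantile-normalized again. For the differences, these alternatives were chosen after seeing the data. Matrix list genes called higher numbered 19 of 70 without the dimmest 25% of genes (7.71% of all genes), against 12 of 80 (4.16%). Those called lower numbered 5 with the replicate block (1.08% of all genes) and 5 to 6 with 1 array left out (1.12% to 1.79%), against 8 (3.00%). All genes called numbered 956, and 1508 without genes below the median probe, 500 with the unmoderated model, 1639 with an intensity trend, 343 with the replicate block, and 358 to 592 with 1 array left out. Centring each array on its own median shifted the median log2 fold change from 0.003 to -0.04 and the split of calls from 555 higher and 401 lower to 434 higher and 516 lower. No effect shared by same-numbered arrays was visible: their deviations from the group means correlated at 0.02, -0.14 and -0.07. Whether such arrays were prepared together cannot be told from these values, and the labels do not say. With the replicate block the calls of Ncan, Tnr and Cd44 had adjusted p = 0.0338, 0.0431 and 0.0339. With 3 arrays a group, effects of the size of Bcan's and Vcan's intervals cannot be resolved.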

Other observations

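For each of the 5 genes, the genes with the most similar profile were taken as those with the highest Pearson correlation of log2 values over the 6 arrays. The arrays share 2 groups and a common normalization, so a gene with a clean group difference correlates with many others, and the values are a description only. Ncan was most like Hspb1 (a small heat shock protein, r = 0.999), Gfap (r = 0.999) and Dclk1 (a doublecortin-like kinase, r = 0.997), and 389 genes exceeded 0.95. Cd44 was most like Ndc80 (a kinetochore protein, r = 0.999), Myt1 (a zinc finger factor of the oligodendrocyte lineage, r = 0.998) and Cspg4 (r = 0.998), with 283 genes above 0.95. Tnr was most like Map1b (a microtubule-associated protein, r = 0.997), Idh1 (isocitrate dehydrogenase, r = 0.997) and Samd4b (r = 0.996), with 257 genes above 0.95. Map1b and Samd4b fell by 0.62 and 0.56 on the log2 scale (limma adjusted p = 0.0121 and 0.0100), and Idh1 was at -0.25 (adjusted p = 0.0857).

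Bcan and Vcan, which did not pass the test, had fewer look-alikes, with 46 and 34 genes above 0.95. Bcan was most like Rtp1 (r = 0.993), Gad1 (the GABA-synthesising enzyme, r = 0.993) and Senp2 (a SUMO protease, r = 0.987). Vcan was most like Ankle2 (r = 0.989), Cep295 (a centriole protein, r = 0.989) and Misp (a mitotic spindle protein, r = 0.987). These 6 genes did not pass the limma test between the groups (adjusted p 0.185 to 0.539).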
